A study of Mus musculus with 12 samples.

Results

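The genes described here are 10 genes of the myeloid and mast cell lineages, namely Spi1, Cebpa, Cebpb, Irf8, Mitf, Csf2rb, Csf2ra, Fcer1g, Ptprcap and Mpo. They were chosen by name, with no rule on measured values but with earlier results of these data known, and all 10 are among the 17210 genes of the count table. Of the 10, 5 were measured well enough to test (Spi1, Cebpb, Csf2rb, Csf2ra and Ptprcap, of 11177 genes tested in all), and the other 5 lay at trace level in all 12 libraries. The GM-CSF and IL-3 receptor chain Csf2rb changed most. It stood at 66.3 ± 1.6 CPM (SD, n = 3; CPM is counts scaled to a common library size) in the control cells. Against those, it was 7.15-fold higher with β-estradiol, the hormone used to turn on GATA1 activity, and 15.2-fold higher with active SREBP2 alone. What part GATA1 activity had in either rise was not tested.

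Blood cell lineages are set by transcription factors that compete with each other. PU.1, the product of Spi1, drives myeloid fates and binds GATA1, the main erythroid factor, and each can block the activity of the other. C/EBPα, C/EBPβ and IRF8 direct granulocyte and monocyte development, while MITF, together with GATA2 and signals from the KIT receptor, directs mast cells. The growth factors GM-CSF, IL-3 and IL-5 act through receptors that pair a chain of their own with a common β chain, and the high-affinity IgE receptor of mast cells signals through the γ chain that Fcer1g encodes.

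All libraries came from G1E-ER4, a mouse erythroid line that lacks its own GATA1 and carries GATA1 fused to the hormone-binding part of the human estrogen receptor, so that β-estradiol (EST) turns GATA1 activity on. The cells of every group had been exposed to retrovirus for 24 h. Vector cells received the empty virus and no EST. SREBP2 cells received a virus for the active, FLAG-tagged fragment of SREBP2 (residues 1 to 468), a transcription factor of cholesterol synthesis, and no EST. Vector+EST and SREBP2+EST cells received the same viruses and then EST for 6 h. The EST dose is 500 nM in the sample records and 200 nM in the series design text. The labels give the strain as C57BL/6J. The medium of this line held stem cell factor, the ligand of KIT, and erythropoietin. Each group had 3 libraries of this 1 line, and no source used here ties each library to a culture of its own (legends of the study speak of independent experiments in general), so p-values measure the spread between these libraries, which may be technical. Library numbers are those of the column headers and differ from the replicate numbers in the titles.

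Library totals ran from 18700959 to 19152281 estimated counts, and 3 counts, taken as the smallest level detected, came to between 0.153 and 0.163 CPM. The virus-borne fragment is of human SREBP2, and what its reads add to the row of the mouse gene Srebf2 was not tested. That row stood at 360.9 ± 8.3 CPM (SD, n = 3) in Vector and 816.2 ± 20.1 CPM in SREBP2 cells. The labels call the cells embryonic stem cells, but of 10 markers of such cells 6 were in the table and none passed the filter on low counts, their summed level being between 0.158 and 0.853 CPM. All 16 erythroid markers were tested and summed to between 7002 and 11240 CPM. Pairs of libraries were compared by the chi-square of their counts, averaged over tested genes with 10 or more counts in the pair, where a lower value means more alike. Across all tested genes, the library labelled SREBP2 1 was nearer to SREBP2+EST libraries 2 and 5 (3.70 and 4.79) than to SREBP2 libraries 3 and 5 (7.996 and 10.4). The library labelled SREBP2+EST 1 was likewise nearer to SREBP2 libraries 3 and 5 (1.93 and 3.10) than to SREBP2+EST libraries 2 and 5 (6.08 and 6.19). The other pairs within a group lay between 1.80 and 3.27. Whether their labels are exchanged was not tested. With both left out, 1567 of 11292 genes passed for EST in SREBP2 cells, where 0 passed with all 12. Those libraries were picked for their values, so counts and p-values without them are not independent evidence. The main values of each gene without both are given with it. Summed transcripts of the stromal genes Col1a1, Igfbp7, Fn1 and Mmp2 reached between 12.3 and 27.2 CPM in Vector+EST library 5 and the 3 SREBP2+EST libraries, and at most 0.31 CPM in the other 8. These 4 were picked from a list of 10 stromal genes after their values were seen, and the list did not move as one. Col1a2 went from 19.5 ± 0.51 CPM (SD, n = 3) in Vector to 5.47 ± 1.7 CPM with EST, 4.56 ± 0.67 CPM with SREBP2 and 6.91 ± 1.1 CPM with both, and Thy1 fell with SREBP2 in the presence of EST (log2 fold change -5.34, adjusted p = 0.00682 by edgeR). In the 4 genes the doubtful libraries lay with their labels, at 0.159 CPM in SREBP2 1 and 13.7 CPM in SREBP2+EST 1. In bulk RNA, fewer cells of a type and less RNA per cell cannot be told apart.

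Across the comparisons, the 5 tested genes did not move as one, though Cebpb and Ptprcap fell together in both comparisons with Vector. EST in Vector cells raised Csf2rb and lowered Spi1, Cebpb and Ptprcap, while Csf2ra did not pass. With 70.6% of all tested genes past the threshold in that comparison, 4 of 5 is near the background. SREBP2 without EST raised Csf2rb, Spi1 and Csf2ra and lowered Cebpb and Ptprcap (background 71.5%). Both comparisons use the same 3 Vector libraries as control. Among EST-treated cells, SREBP2 raised Spi1 and Csf2rb, and the other 3 did not pass (background 21.9%). EST in SREBP2 cells changed none of the 5 by edgeR's quasi-likelihood test, and 0 of all tested genes passed (background 0%). An unadjusted p under 0.05 was found for 506 of 11177 genes, below the share of 0.05 that no effect would give on average. DESeq2 called 12. The interaction, which is the EST effect in SREBP2 cells minus that in Vector cells on the log2 scale, passed for all 5 genes (background 59.0%). The call for Csf2ra did not hold under several settings, given with that gene.

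**Figure D1:**
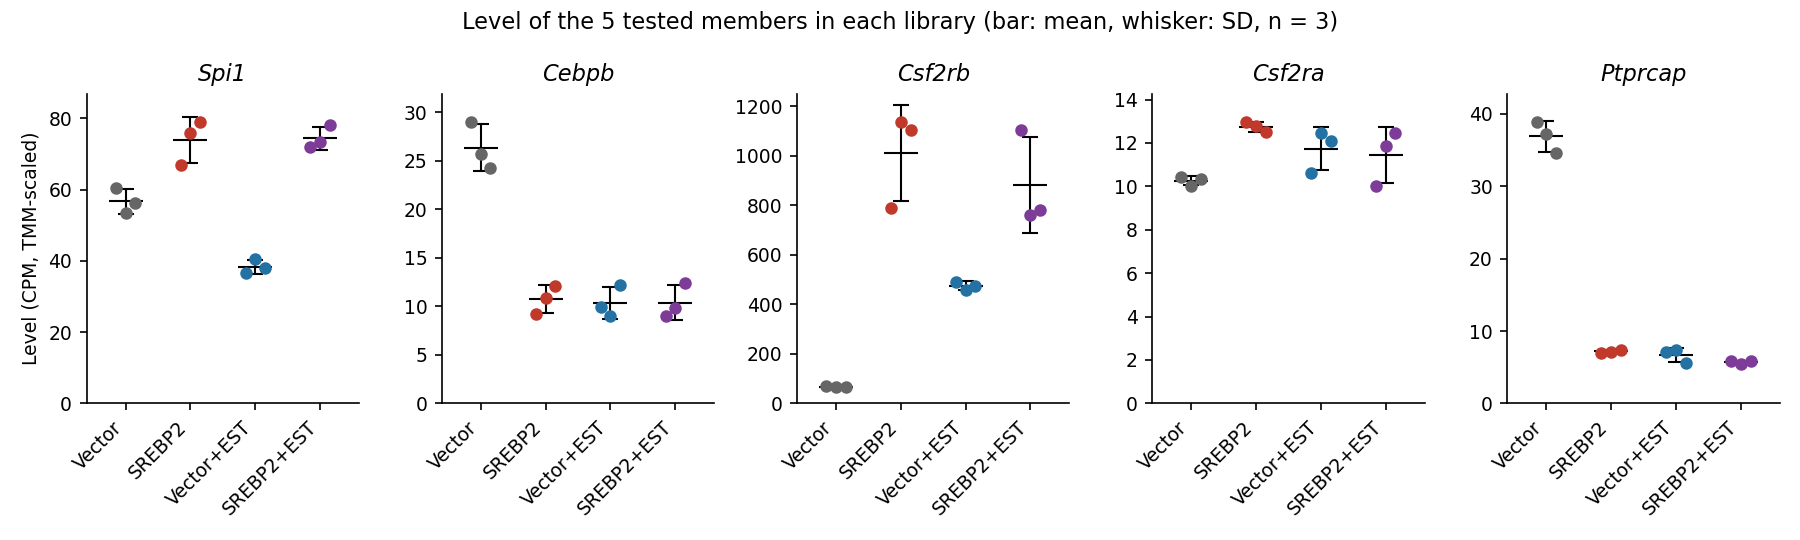
Level of each of the 5 tested genes (CPM after TMM scaling, y axes from 0) in the 12 libraries by group, with the points of a group in the order of their header numbers, a bar at the mean and whiskers of 1 SD (n = 3). Csf2rb rises from about 66 CPM in Vector to 474.4 CPM in Vector+EST and at least 758.9 CPM in both SREBP2 groups, Cebpb and Ptprcap fall in all 3 treated groups, and Spi1 falls only in Vector+EST.

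Spi1 encodes PU.1 and lies at chr2:91082374-91115759 on the plus strand (GRCm38.p6, as are all positions given here). It was the one gene of the 5 that EST and SREBP2 moved in opposite directions. Its level was 60.5, 53.5 and 56.4 CPM in Vector libraries 1, 4 and 5, and 36.5, 40.5 and 38.0 CPM in Vector+EST libraries 1, 3 and 5. It was 66.8, 75.9 and 79.1 CPM in SREBP2 libraries 1, 3 and 5, and 71.9, 73.5 and 78.1 CPM in SREBP2+EST libraries 1, 2 and 5. Every Vector+EST library was below every Vector library, and every library with SREBP2 was above both, whether or not EST was added. Spi1 fell 1.48-fold with EST in Vector cells (log2 fold change -0.57, SE 0.07, adjusted p = 1.5e-06). SREBP2 raised it 1.30-fold without EST (0.38, SE 0.07, adjusted p = 6.42e-05) and 1.94-fold with EST (0.96, SE 0.07, adjusted p = 1.54e-08). In SREBP2 cells the difference with EST was 0.01 (95% interval -0.12 to 0.15), and the interaction was 0.58 (SE 0.09, adjusted p = 6.00e-05). Without both libraries numbered 1, the SREBP2 effects were 0.41 and 0.98 and the interaction was 0.575, and all 3 passed, while EST in SREBP2 cells gave -0.03 and did not.

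Cebpb encodes C/EBPβ, a factor of macrophages and of emergency granulocyte production, in an intronless gene at chr2:167688915-167690432 on the plus strand. It fell to the same low range in all 3 treated groups. Vector libraries 1, 4 and 5 held 29.0, 25.7 and 24.3 CPM. SREBP2 libraries 1, 3 and 5 held 9.22, 10.9 and 12.1 CPM. Every treated library lay below every Vector library. Vector+EST libraries 1, 3 and 5 held 9.90, 8.99 and 12.2 CPM, and SREBP2+EST libraries 1, 2 and 5 held 8.99, 9.80 and 12.4 CPM, so the 3 treated groups overlapped throughout. Cebpb fell 2.55-fold with EST in Vector cells (log2 fold change -1.35, SE 0.13, adjusted p = 7.17e-08), and SREBP2 without EST lowered it 2.46-fold (-1.30, SE 0.13, adjusted p = 1.07e-07). Neither SREBP2 in the presence of EST (0.01, 95% interval -0.29 to 0.31) nor EST in the presence of SREBP2 (-0.05, interval -0.34 to 0.25) passed. The interaction was 1.30 (SE 0.19, adjusted p = 1.95e-05). Without both libraries numbered 1, the SREBP2 effect was -1.24 without EST and 0.10 with EST, EST in SREBP2 cells gave -0.049, and the interaction was 1.34, each on the same side of the threshold.

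Tmem189, a gene on the opposite strand, overlaps the Cebpb gene by 908 bases in the annotation, and the library protocol does not state that strand was kept. Tmem189 rose with EST in Vector cells (adjusted p = 5.44e-07) and with SREBP2 (adjusted p = 1.18e-08). It stood at 23.1 ± 0.28 CPM (SD, n = 3) in Vector cells, and at 32.1 ± 1.1 CPM in Vector+EST, 36.1 ± 1.4 CPM in SREBP2 and 36.5 ± 0.56 CPM in SREBP2+EST cells. What reads of 1 gene added to the count of the other was not tested.

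Promoters are shown for the 2 tested genes with an entry in the RefSeq promoter table used here (GRCm38.p6), which holds 7 of the 10 genes but not Spi1, Csf2rb and Ptprcap. They are Cebpb, which fell in every treated group, and Csf2ra, which moved least, together with Csf2rb2, the near-copy of Csf2rb. Each run gives the 250 bases before the start that this table uses, which for Csf2ra lies inside the gene span given below, 5′ to 3′ on the strand of the gene, and capitals mark matches to 4 motifs searched on both strands. These were the GATA motif (AGATAA, where the first base may also be T and the last G; in 26.5% of 32851 promoters of this length), the ETS motif that PU.1 can bind (AGGAAG; 29.5%), the E-box (CACGTG; 6.02%) and the sterol regulatory element (TCACNCCAC; 1.05%).
Cebpb, chr2:167688665-167688914, plus strand: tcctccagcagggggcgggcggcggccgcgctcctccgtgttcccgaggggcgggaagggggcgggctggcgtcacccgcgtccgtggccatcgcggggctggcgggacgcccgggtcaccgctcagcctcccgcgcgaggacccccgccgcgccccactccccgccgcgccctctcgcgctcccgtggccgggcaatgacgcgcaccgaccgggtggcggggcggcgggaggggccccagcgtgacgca
Csf2ra, chr19:61228419-61228668, minus strand: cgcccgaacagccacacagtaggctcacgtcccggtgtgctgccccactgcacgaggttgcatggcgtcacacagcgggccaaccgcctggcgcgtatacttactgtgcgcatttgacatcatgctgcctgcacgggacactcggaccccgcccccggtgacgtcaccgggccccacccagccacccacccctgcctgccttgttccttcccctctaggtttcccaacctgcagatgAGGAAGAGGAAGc
Csf2rb2, chr15:78305722-78305971, minus strand: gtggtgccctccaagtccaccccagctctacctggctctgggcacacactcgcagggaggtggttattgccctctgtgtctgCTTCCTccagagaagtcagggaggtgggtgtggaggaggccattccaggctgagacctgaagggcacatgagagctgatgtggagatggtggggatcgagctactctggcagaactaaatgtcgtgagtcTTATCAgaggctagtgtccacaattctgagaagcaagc
The Cebpb window held no match to the 4 motifs. The Csf2ra window held 2 adjacent ETS matches, starting 13 and 7 bases before the start in that table, and the Csf2rb2 window held 1 ETS match and 1 GATA match, which begins 38 bases before the start, both on the strand opposite to the gene. A match is a description of the letters and not of a bound site, and the windows hold nothing on distant enhancers.

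The other transcription factors of the group were at trace level. Cebpa, the factor needed for granulocyte progenitors, had at most 3 counts in any library, and sums of 3 counts in Vector, 5 in SREBP2, 1 in Vector+EST and 0 in SREBP2+EST cells. Irf8, a factor of monocytes and dendritic cells, had at most 2 counts, with sums of 2, 0, 0 and 1 in that order. Both were therefore at or under 3 counts in every library, and no change in either was detectable at this depth. Mitf, the mast cell and melanocyte factor, was the highest of the untested genes. Its counts were 4, 6 and 5 in the Vector libraries, 1, 1 and 1 in SREBP2, 0, 0 and 3 in Vector+EST, and 3, 2 and 0 in SREBP2+EST. Each Vector library was above each treated library, but with the filter on low counts removed the adjusted p of edgeR's quasi-likelihood test was 0.067 for EST and 0.071 for SREBP2, so neither passed.

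**Figure D2:**
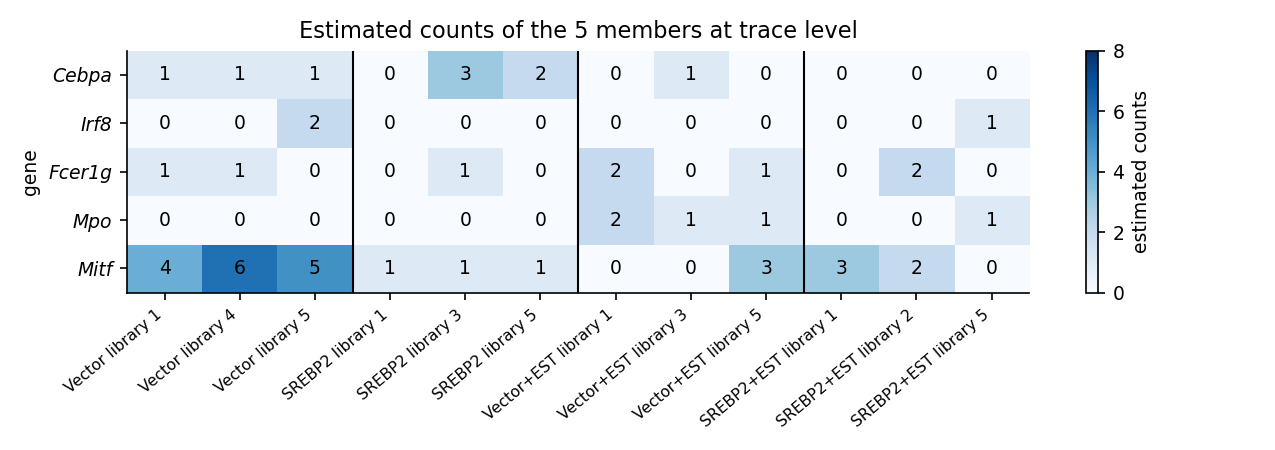
Estimated counts of the 5 untested genes (rows) in each of the 12 libraries (columns, grouped by black lines; colour and printed number give the same value). All values lie between 0 and 6 counts, and the 3 highest are Mitf in the Vector libraries.

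Csf2rb encodes the common β chain shared by the receptors for GM-CSF, IL-3 and IL-5, and lies at chr15:78325800-78351001 on the plus strand. It rose in every treated library. Its level was 68.1, 65.3 and 65.5 CPM in Vector libraries 1, 4 and 5. It was 491.5, 456.3 and 475.3 CPM in Vector+EST libraries 1, 3 and 5. The groups did not overlap, and SREBP2 cells lay above both. SREBP2 libraries 1, 3 and 5 held 787.1, 1137 and 1105 CPM, and SREBP2+EST libraries 1, 2 and 5 held 1104, 758.9 and 781.2 CPM. The SREBP2 and SREBP2+EST libraries thus fell into a set of 3 between 1104 and 1137 CPM and a set of 3 between 758.9 and 787.1 CPM, and each set held 1 library of the opposite label.

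Csf2rb rose 7.15-fold with EST in Vector cells (log2 fold change 2.84, SE 0.15, adjusted p = 5.17e-11), and SREBP2 without EST raised it 15.2-fold (3.93, SE 0.15, adjusted p = 1.12e-12). With EST already present, SREBP2 raised it 1.86-fold (0.89, SE 0.13, adjusted p = 8.61e-05). The interaction was -3.03 (SE 0.19, adjusted p = 1.79e-09). EST in SREBP2 cells gave -0.20 (SE 0.13, adjusted p = 0.919). Without SREBP2 library 1 and SREBP2+EST library 1 this became -0.54 (SE 0.04, adjusted p = 1.44e-08). The other comparisons of Csf2rb passed with and without them, at 4.04 for SREBP2 without EST, 0.70 with EST and -3.34 for the interaction. The comparison of SREBP2+EST with SREBP2 follows the split in transcripts of the 4 stromal genes named above, so the effect of EST and those transcripts cannot be told apart there. Among Vector+EST libraries, library 5, which held such transcripts, lay between libraries 1 and 3 in Csf2rb.

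**Figure D3:**
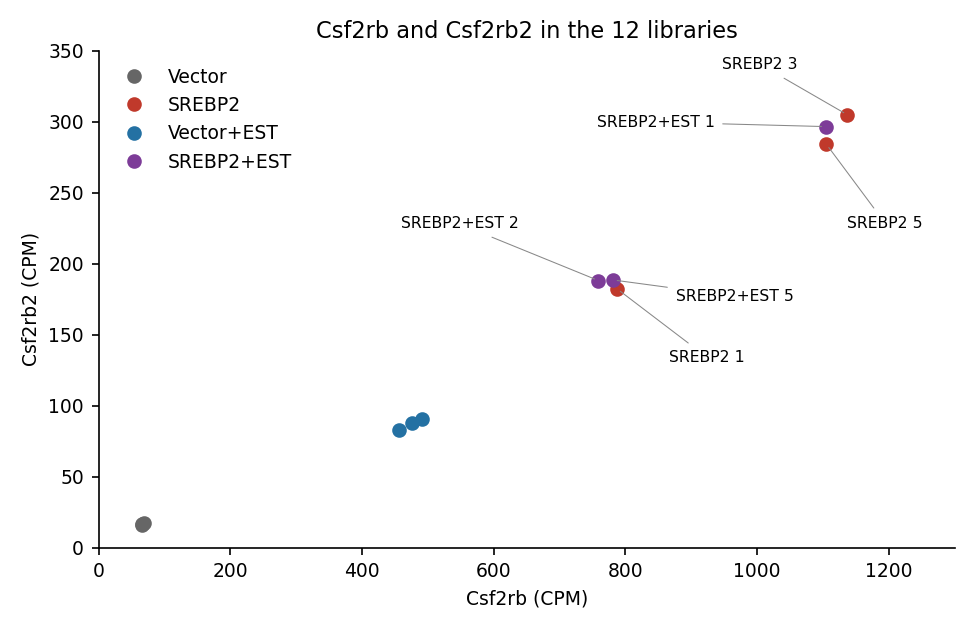
Csf2rb (x axis, CPM) against its neighbour Csf2rb2 (y axis, CPM) in the 12 libraries, coloured by group, with the SREBP2 and SREBP2+EST libraries named. The 6 libraries with SREBP2 form 2 sets of 3, in which SREBP2 1 sits with SREBP2+EST 2 and 5, and SREBP2+EST 1 sits with SREBP2 3 and 5.

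Csf2rb2, a copy found in mice that serves the IL-3 receptor alone, lies 20078 bases away on the opposite strand, at chr15:78282507-78305721. Of all 50-base words of the longest Csf2rb transcript, 18.4% also occur in that of Csf2rb2, so reads of this length can be split between them and the single values are uncertain. Csf2rb2 rose as well, from 16.8 ± 0.95 CPM (SD, n = 3) in Vector to 87.4 ± 3.9 CPM in Vector+EST, 257.1 ± 65.6 CPM in SREBP2 and 224.5 ± 62.5 CPM in SREBP2+EST cells. It took between 15.4% and 15.6% of the summed counts of the pair in the Vector+EST libraries, and between 18.8% and 21.2% in the other 9. Its log2 fold change was 2.38 (SE 0.21, adjusted p = 4.97e-08) for EST in Vector cells and 3.93 (SE 0.21, adjusted p = 6.93e-11) for SREBP2. Without both libraries numbered 1 the SREBP2 effect was 4.09 without EST and 1.105 with EST, and EST in SREBP2 cells moved from -0.20 (adjusted p = 0.919) to -0.64 (adjusted p = 1.44e-08). With both genes added into 1 row, the change was 2.76 for EST and 3.93 for SREBP2.

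Csf2ra encodes the chain that gives the receptor its specificity for GM-CSF, and lies at chr19:61217191-61228461 on the minus strand. It hardly moved. Vector libraries 1, 4 and 5 held 10.5, 10.02 and 10.3 CPM, and SREBP2 libraries 1, 3 and 5 held 13.0, 12.8 and 12.5 CPM. Vector+EST libraries 1, 3 and 5 held 10.6, 12.5 and 12.1 CPM, and SREBP2+EST libraries 1, 2 and 5 held 10.01, 11.9 and 12.5 CPM. The Vector libraries were below all others except SREBP2+EST library 1, and the SREBP2 libraries were above all others. SREBP2 without EST raised Csf2ra 1.24-fold (log2 fold change 0.31, SE 0.09, adjusted p = 0.0056), and without both libraries numbered 1 it gave 0.26 (adjusted p = 0.0154). That call was lost with the header number as a replicate block, with values in the closing section. EST in Vector cells gave 0.19 (SE 0.09, adjusted p = 0.0727), which passed without Vector+EST library 1 (0.26, adjusted p = 0.0286) or without SREBP2+EST library 1 (adjusted p = 0.0437). SREBP2 with EST gave -0.03 (95% interval -0.23 to 0.16), and 0.051 (adjusted p = 0.718) without those libraries, and EST in SREBP2 cells gave -0.16 (interval -0.35 to 0.04), or -0.055 (adjusted p = 0.783) without those libraries. The interaction of -0.35 (SE 0.13, adjusted p = 0.0286) was lost with DESeq2 (adjusted p = 0.0753), without both libraries numbered 1 (-0.21, adjusted p = 0.174), and without any 1 of Vector 4 or 5, Vector+EST 3 or 5 and SREBP2+EST 1 (adjusted p between 0.0715 and 0.0927). The replicate block ended the interaction call as well.

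Both chains of the receptor were thus measured in the same libraries. Per kilobase of the longest coding transcript, Csf2rb stood at 13.5 CPM in Vector cells, rising to 96.8 CPM in Vector+EST, 206.0 CPM in SREBP2 and 180.0 CPM in SREBP2+EST cells. On that scale Csf2ra stood at 5.55, 6.34, 6.90 and 6.20 CPM in the same order of groups. In Vector cells the order of the 5 genes per kilobase was Ptprcap (34.1), Spi1 (27.9), Cebpb (17.5), Csf2rb (13.5) and Csf2ra (5.55). In SREBP2 cells Csf2rb came first (206.0) and Spi1 next (36.3), and Cebpb (7.13), Csf2ra (6.90) and Ptprcap (6.63) were close together.

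Fcer1g encodes the γ chain that carries signals for the IgE receptor and several IgG receptors through its ITAM motif. It had at most 2 counts in any library, with sums of 2, 1, 3 and 2 counts in Vector, SREBP2, Vector+EST and SREBP2+EST cells. No change was detectable at this depth.

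Ptprcap encodes a membrane protein that associates with CD45, the leukocyte phosphatase, and lies at chr19:4154646-4156710 on the plus strand. It fell more than 5-fold under EST and under SREBP2. Vector libraries 1, 4 and 5 held 38.9, 37.2 and 34.6 CPM. SREBP2 libraries 1, 3 and 5 held 6.94, 7.15 and 7.43 CPM. Vector lay above every other library. Vector+EST libraries 1, 3 and 5 held 7.06, 7.37 and 5.57 CPM, and SREBP2+EST libraries 1, 2 and 5 held 5.80, 5.495 and 5.82 CPM. Vector+EST overlapped both SREBP2 groups, and the SREBP2+EST libraries were all below the SREBP2 libraries. Ptprcap fell 5.53-fold with EST in Vector cells (log2 fold change -2.47, SE 0.09, adjusted p = 6.67e-13), and SREBP2 without EST lowered it 5.14-fold (-2.36, SE 0.09, adjusted p = 7.61e-13). SREBP2 with EST gave -0.23 (SE 0.11, adjusted p = 0.164). It passed without Vector+EST library 5, the one with transcripts of those 4 stromal genes (-0.34, adjusted p = 0.0301). EST in SREBP2 cells gave -0.33 (SE 0.11), with an unadjusted p of 0.00846 and an adjusted p of 0.919 by edgeR's quasi-likelihood test. The interaction was 2.14 (SE 0.14, adjusted p = 3.34e-09). With SREBP2 library 1 and SREBP2+EST library 1 left out, the SREBP2 effects were -2.38 and -0.24, EST in SREBP2 cells gave -0.37 (adjusted p = 0.0912), the interaction was 2.14, and no call changed.

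In the GENCODE annotation, whose Ptprcap gene spans chr19:4153604-4156751 and so is longer than the RefSeq span given above, it overlaps Coro1b on the same strand by 432 bases and Rps6kb2 on the opposite strand by 2761 bases. Coro1b held between 2691 and 3309 estimated counts and Rps6kb2 between 643 and 781 counts over the 12 libraries. For EST in Vector cells their log2 fold changes were -0.22 (adjusted p = 0.000148) and -0.02 (adjusted p = 0.824). For SREBP2 without EST they were -0.085 (adjusted p = 0.0677) and 0.024 (adjusted p = 0.788). What reads of these genes added to the count of Ptprcap was not tested. Ptprc, the gene of CD45 itself, had at most 2 counts in any library.

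Mpo encodes myeloperoxidase, the enzyme of neutrophil primary granules. It had at most 2 counts in any library, with sums of 0, 0, 4 and 1 counts in Vector, SREBP2, Vector+EST and SREBP2+EST cells, and was at or under 3 counts in all 12.

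**Figure D4:**
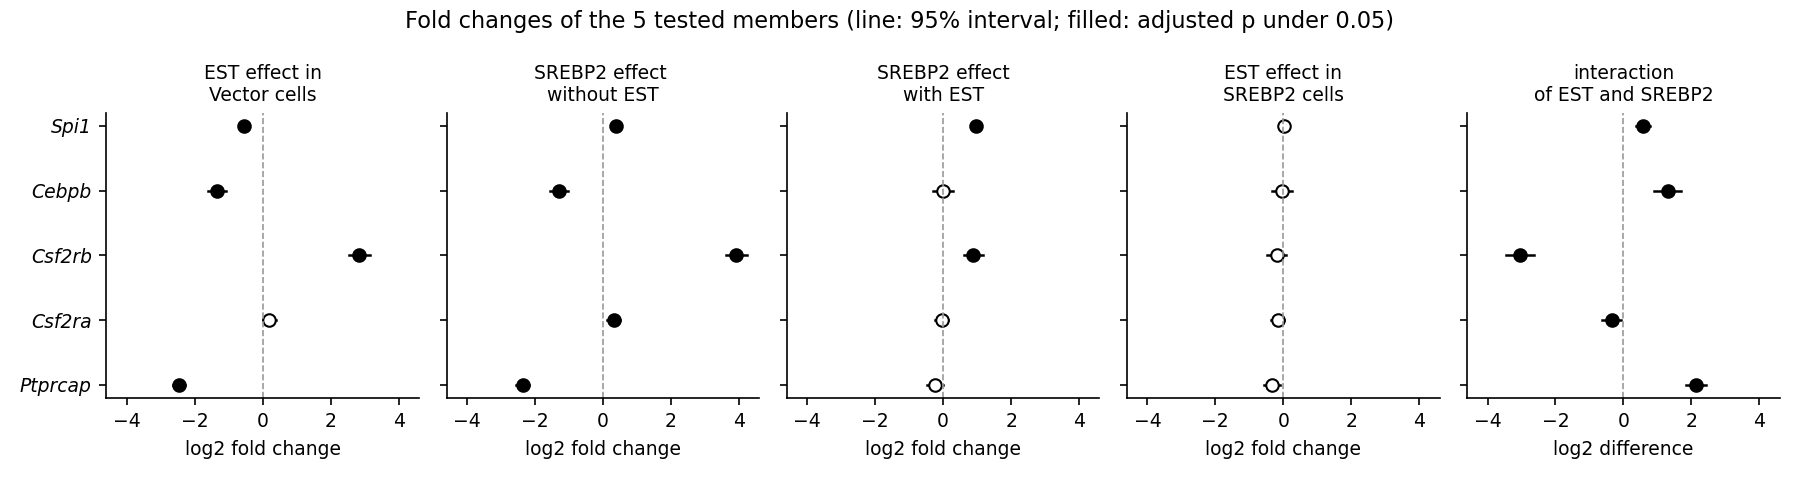
Log2 fold changes of the 5 tested genes (points) with 95% intervals (lines) in the 4 comparisons and the interaction, filled where the adjusted p of edgeR's quasi-likelihood test was under 0.05. Csf2rb is at 2.84 and 3.93 in the first 2 panels, Ptprcap at -2.47 and -2.36, and no point is filled for EST in SREBP2 cells.

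Related genes were taken from lists of the same lineages and pathways, and each list is described by counts and medians beside all tested genes, whose median log2 fold change was 0.01 for EST in Vector cells, 0.03 for SREBP2 without EST and 0.00 for SREBP2 with EST. Over all tested genes, 35.2% rose and 35.5% fell with EST in Vector cells, and 37.7% rose and 33.8% fell with SREBP2 without EST. SREBP2 with EST raised 1560 and lowered 888 of the 11177. A list's share near these values is no result about the list, and the lists too were chosen with earlier results known, so their counts are descriptions. The receptor pathway of GM-CSF and IL-3 had 20 genes, all tested. Of these, 7 rose and 12 fell with EST in Vector cells, with a median of -0.33, and SREBP2 without EST also raised 7 and lowered 12, with a median of -0.30. With EST, SREBP2 raised 6 and lowered none. The falls were 12 of 20 beside 35.5% and 33.8% over all genes, and the 19 calls in each comparison stand beside 70.6% and 71.5%. Among the 4 that moved most, only the receptor chain Csf2rb2 rose. Socs3 (-2.65 for EST, -2.54 for SREBP2) and Cish (-2.06 and -1.55), which are induced by STAT5 or STAT3 and damp cytokine signals, fell, as did Ptpn6 (-2.18 and -2.02), the gene of the phosphatase SHP-1.

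In the list of Fc receptor and ITAM signaling, 10 of 12 tested genes fell with EST, where 35.5% of all genes fell. The list held 16 genes, among them inhibitory receptors and general signaling genes such as Itpr1 and Plcg1, and it shares Gab2 with the receptor pathway list. Of the 12, EST lowered 10 and raised none in Vector cells (median -1.21), SREBP2 without EST lowered 8 and raised 2 (median -0.59), and SREBP2 with EST raised 5 and lowered none (median 0.18). Lat, an adaptor of ITAM signals, went from 6.57 ± 0.50 CPM (SD, n = 3) in Vector to 1.02 ± 0.50 CPM with EST and 0.74 ± 0.16 CPM with SREBP2. Lcp2, the gene of the adaptor SLP-76, went from 25.3 ± 1.1 CPM to 7.35 ± 0.03 CPM and 15.4 ± 3.2 CPM. Both adaptors fell in each comparison with Vector. Pirb, an inhibitory receptor, went from 1.42 ± 0.44 CPM to 0.10 ± 0.17 CPM with EST and 0.33 ± 0.10 CPM with SREBP2, and both falls passed. Fcgr2b, the inhibitory IgG receptor, changed by -1.77 on the log2 scale with EST, and its change of -0.25 with SREBP2 did not pass. The kinase gene Syk and the phospholipase gene Plcg2, which this pathway uses, had at most 1 count in any library.

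Mast cell and basophil genes went both ways. Of 22 in the list, 12 were tested. EST in Vector cells raised 3 and lowered 7 (median -0.53), SREBP2 without EST raised 3 and lowered 2 (median -0.14), and SREBP2 with EST raised 6 and lowered none (median 0.47). Cpa3, the mast cell carboxypeptidase, went from 11.9 ± 0.21 CPM (SD, n = 3) in Vector to 2.02 ± 0.25 CPM with EST and 3.79 ± 0.37 CPM with SREBP2. The protease gene Mcpt1 changed by -1.80 with EST (adjusted p = 2.6e-06), while its -0.25 with SREBP2 did not pass (adjusted p = 0.249). Srgn, the core protein of granule proteoglycan, rose by 1.102 with EST and 1.91 with SREBP2. Slc18a2, the vesicle transporter of amines, rose by 1.56 and 1.17. Fcer1a, the IgE-binding chain, had at most 5 counts in any library.

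**Figure D5:**
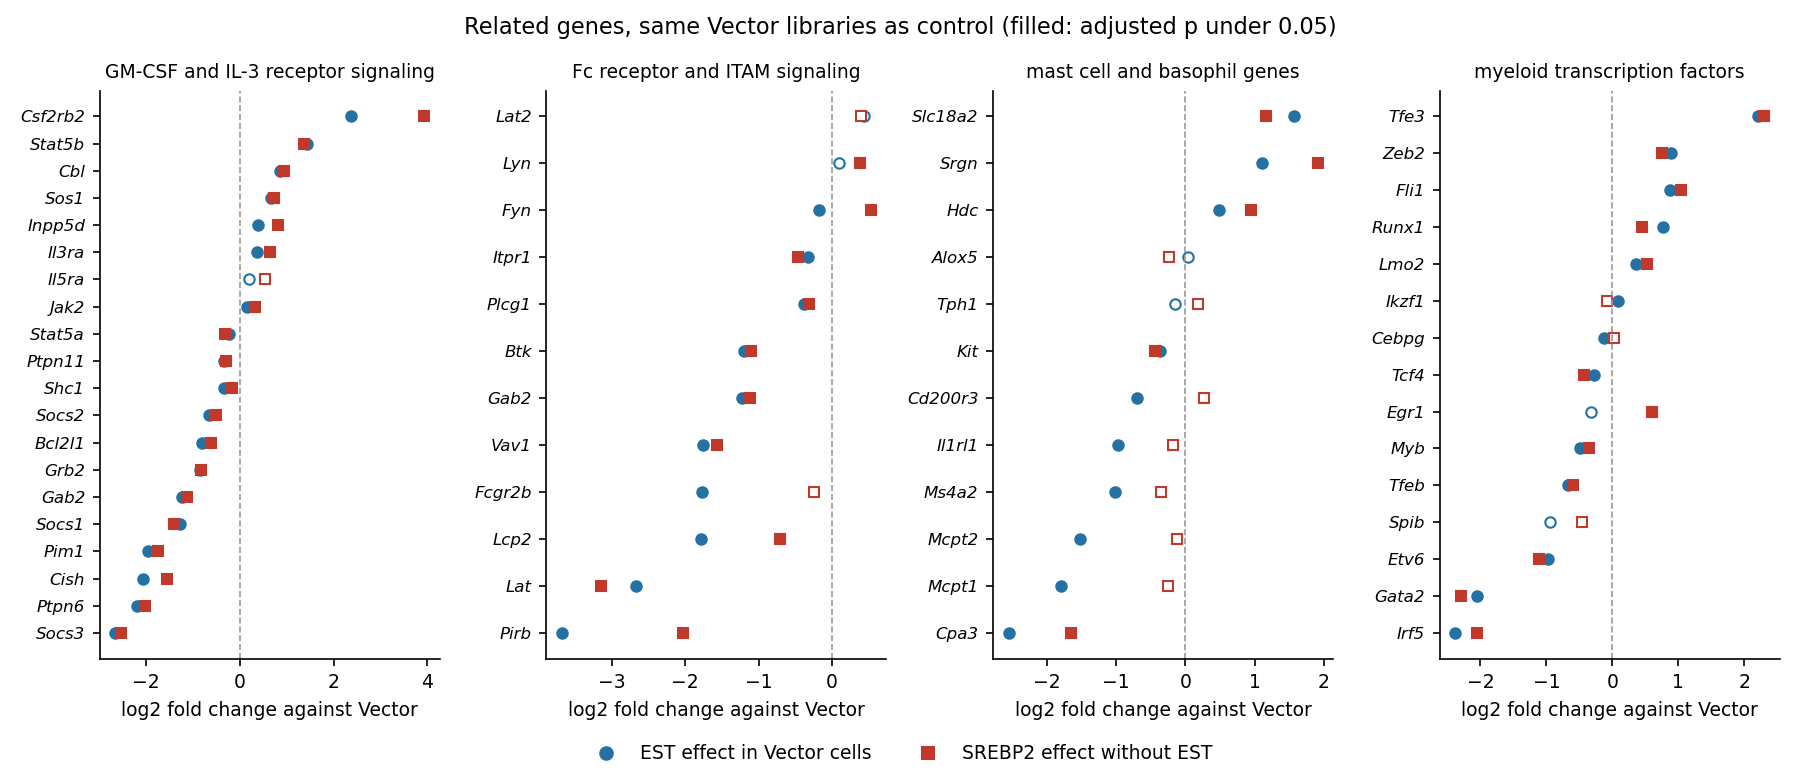
Log2 fold change against Vector (x axis) of the tested genes of 4 related lists, for EST in Vector cells (blue circles) and SREBP2 without EST (red squares), filled where the adjusted p was under 0.05. Both comparisons use the same Vector libraries. In the Fc receptor and ITAM panel 10 of 12 circles are filled and lie left of 0.

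Among 24 other myeloid transcription factors, 23 were in the table and 15 were tested. With EST in Vector cells 6 rose and 7 fell (median -0.27), SREBP2 without EST raised 6 and lowered 6 (median -0.08), and SREBP2 with EST raised 3 and lowered 3 (median 0.04). Tfe3, a relative of MITF, went from 68.1 ± 2.5 CPM (SD, n = 3) in Vector to 314.0 ± 9.9 CPM with EST and 335.9 ± 3.2 CPM with SREBP2. Gata2, a factor of progenitors and mast cells, fell from 644.5 ± 17.7 CPM to 155.6 ± 4.6 CPM and 130.9 ± 2.8 CPM. Irf5 changed by -2.38 with EST and -2.05 with SREBP2, and Etv6 by -0.97 and -1.12.

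Most granulocyte and monocyte genes were too low to test or not in the table. Of 28 in the list, 24 were in the table and 7 were tested, and the granule and surface genes Elane, Prtn3, Ctsg, Lyz2, Csf1r and Itgam had at most 6 counts in any library. In Vector cells EST lowered 4 of the 7 and raised none (median -0.25), SREBP2 without EST raised 3 and lowered 2 (median 0.04), and SREBP2 with EST raised 4 and lowered none (median 0.35). Cyba, a subunit of the phagocyte oxidase, went from 74.8 ± 2.7 CPM (SD, n = 3) in Vector to 39.96 ± 2.8 CPM with EST and 49.5 ± 5.6 CPM with SREBP2. Fcgr3, an IgG receptor that uses the γ chain, went from 3.73 ± 0.47 CPM to 1.504 ± 0.48 CPM with EST, and its -0.23 with SREBP2 did not pass. Csf3r, the G-CSF receptor, and Ncf4, another oxidase gene, rose with SREBP2 by 1.07 and 0.85 from about 1 CPM.

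Without SREBP2 library 1 and SREBP2+EST library 1, a setting added to the lists after the data were seen, SREBP2 without EST raised 8 and lowered 12 of the receptor pathway genes, raised 2 and lowered 8 of the Fc receptor genes, and raised 4 and lowered 2 of the mast cell genes. It raised 6 and lowered 7 of the transcription factors, and raised 2 and lowered 2 of the granulocyte and monocyte genes. SREBP2 with EST raised 7, 5, 6, 3 and 4 genes of these lists in the same order, and lowered 0, 1, 1, 5 and 0. In the fit without both, 70.7% of all tested genes passed for SREBP2 without EST, 30.8% for SREBP2 with EST and 13.9% for EST in SREBP2 cells. EST in SREBP2 cells, which called no gene with all 12 libraries, then raised 1 and lowered 2 of the receptor pathway genes, lowered 2 of the Fc receptor genes and 5 of the mast cell genes, raised 1 and lowered 3 of the transcription factors, and changed none of the granulocyte and monocyte genes by this test. The genes of these lists whose levels or fold changes are given above kept their direction and side of the threshold for EST in Vector cells and SREBP2 without EST wherever they had passed, and none that had not passed did so.

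Markers of other lineages moved in the same comparisons, and their part in the results above was not tested. Of 18 CD45 and lymphoid markers 14 were in the table and 4 were tested. Of these, EST in Vector cells raised 1 and lowered 2, as did SREBP2. Cd79a, a B cell receptor chain, went from 0.10 CPM in Vector, below 3 counts, to 0.98 ± 0.19 CPM (SD, n = 3) with EST and 1.04 ± 0.33 CPM with SREBP2, while the T cell genes Cd3g stood at -1.77 and -1.38 and Lck at -1.15 and -1.20 on the log2 scale. The summed level of the list was between 8.54 and 9.90 CPM in Vector libraries, and between 6.39 and 7.33 CPM with EST, 6.62 and 7.82 CPM with SREBP2, and 6.01 and 7.59 CPM with both. The 7 megakaryocyte markers, of which 4 were tested and Vwf, Ppbp and Gp6 were not, summed to between 54.6 and 63.1 CPM in Vector libraries, and to between 44.2 and 53.2 CPM with EST, 88.7 and 107.4 CPM with SREBP2, and 95.5 and 112.6 CPM with both. Within that list Pf4 was -0.63 with EST and 2.33 with SREBP2, Gp1ba 1.098 and 1.34, Itga2b -2.45 and -1.96, and Gp9 -2.06 and -1.88. The 10 stromal markers, all in the table, 7 of them tested and 2 at or under 3 counts in every library, summed to between 21.1 and 22.3 CPM in Vector libraries, and to between 6.48 and 37.1 CPM with EST, 5.83 and 8.94 CPM with SREBP2, and 19.1 and 36.0 CPM with both. Of the stromal markers, EST in Vector cells raised 4 and lowered 1, and SREBP2 raised none and lowered 1. The 4 were Col1a1, Igfbp7, Fn1 and Mmp2, which 1 library carried: they summed to 27.2 CPM in Vector+EST library 5, against 0.31 and 0.105 CPM in Vector+EST libraries 1 and 3. Of the erythroid markers, EST in Vector cells raised 3 and lowered 11 of 16, and SREBP2 raised 4 and lowered 10. Slc4a1 stood at -4.56 with EST and -4.06 with SREBP2, Tal1 at -2.27 and -2.23, Gata1, whose reads can include the fusion, at -1.97 and -1.67, and Alas2 at 1.402 and 1.76.

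For each of the 5 genes, the genes with the most similar pattern were taken by Pearson's r of log2 CPM over the 12 libraries, which share 4 groups, so that a shared group pattern alone gives a high r. Spi1 was closest to Por (r = 0.988), Scarb1 (0.986) and Prnp (0.986). Cebpb was closest to Rusc1 (0.989), Fam53a (0.988) and Gas2l1 (0.987). Csf2rb was closest to Plxnc1 (0.997), Atl2 (0.997) and Igsf3 (0.997). Csf2ra had no neighbour as near, with Necap1 (0.850), Uvssa (0.845) and Pdhb (0.819) closest. Ptprcap was closest to Utp14a (0.996), Rilpl2 (0.996) and Pno1 (0.995). Among the 5 themselves, Cebpb and Ptprcap were most alike (r = 0.949), Csf2rb ran against both (-0.914 and -0.949), and Spi1 was nearest to 0 with Cebpb (-0.023).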

How the data were processed

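mRNA of G1E-ER4 cells was sequenced as single-end 50-base reads in 12 libraries, 3 in each of 4 groups taken from the sample titles. The authors deposited estimated counts per gene, not normalized, of which 66.5% are whole numbers. The submitters' processing notes name HISAT2 2.0.4, Bowtie2 2.2.5, RSEM 1.2.12, DESeq2 1.4.5 and the build GRCm38.p6, with no role given. Column headers name the group and a number that is not the number of the titles, so columns were tied to groups only. A further deposited table holds the authors' own comparisons per transcript (log2 fold changes and p-values) and was not used.

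Estimated counts were rounded and filtered with filterByExpr (11177 genes kept, 6033 left out), scaled by TMM and tested in 1 fit of all libraries with edgeR 4.0.16 in R 4.3.3 (quasi-likelihood F-test, 1 mean per group, Benjamini-Hochberg adjustment over all tested genes, threshold 0.05). Every adjusted p in the text comes from this test unless another tool is named. SE was derived from each fold change and its F statistic (log2 fold change over √F). CPM is TMM-scaled. The floor of 3 counts covers counting error only. The test for EST in Vector cells was also run on simulated counts with few changed genes, all in Vector+EST. That simulation did not cover the other comparisons or data with as many changed genes as here. Positions and promoters are from RefSeq, and transcript lengths and overlaps from GENCODE, both on GRCm38.p6.

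The members and the gene lists were chosen with earlier results of these data known. One gene of the lists is not reported here. The genes named are all 10 members, Srebf2, Gata1 and Gata2, Csf2rb2, the 3 genes nearest to each tested member among those whose average log2 CPM was 3 or more, the defining genes of each list that were at or near 0, and, per list, up to 4 called genes with the largest change in either comparison with Vector and a mean of at least 1 CPM in 1 group. Tmem189, Coro1b, Rps6kb2 and single low genes were added after their values were seen. Alternatives were DESeq2 1.42.0, other scalings (RLE size factors or library totals), other filters (none, or a minimum of 10 counts in each library), separate fits of the libraries compared, fits without 1 library at a time, a fit with both libraries numbered 1 of the SREBP2 groups left out, and a replicate block. The sum of Csf2rb and Csf2rb2 was added after seeing the data.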

Additional observations from a re-analysis of the deposited data

Results flagged for a closer look

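For all 5 tested genes the effect of EST differed between SREBP2 cells and Vector cells by the interaction test of edgeR (quasi-likelihood, adjusted over all tested genes), which 59.0% of all tested genes passed. The log2 difference of the EST effects, SREBP2 cells minus Vector cells, was -3.03 for Csf2rb, 2.14 for Ptprcap, 1.30 for Cebpb, 0.58 for Spi1 and -0.35 for Csf2ra. The last was lost under several settings given with that gene. The 3 Vector libraries enter every one of these values.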

How the results depend on the processing

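The calls of Csf2rb, Cebpb, Ptprcap and Spi1 for EST in Vector cells, for SREBP2 without EST and for the interaction kept their direction and their side of the threshold under every alternative run, as did Spi1 and Csf2rb for SREBP2 with EST. The interaction has no fit of only the libraries compared, since it uses all 12. The number of the 5 genes called moved past 1.5 times the reported count in 1 case, EST in SREBP2 cells, from 0 to 1 with SREBP2 library 1 and SREBP2+EST library 1 both left out, where Csf2rb reached -0.54. That setting also turned Csf2ra for SREBP2 with EST to 0.051 and Spi1 for EST in SREBP2 cells to -0.03. Values near 0 changed sign elsewhere. Cebpb for SREBP2 with EST was -0.011 with DESeq2, -0.01 with RLE size factors and -0.037 with library totals only. With each library left out in turn, Cebpb for SREBP2 with EST ran from -0.14 to 0.14, Csf2ra for SREBP2 with EST from -0.102 to 0.053, Spi1 for EST in SREBP2 cells from -0.057 to 0.063, and Cebpb for EST in SREBP2 cells from -0.19 to 0.05. None of these passed the threshold in any setting. The cause was not tested.

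With the header number as a replicate block, 4, 4, 2, 0 and 4 of the 5 genes passed for EST in Vector cells, SREBP2 without EST, SREBP2 with EST, EST in SREBP2 cells and the interaction. Csf2ra alone lost calls, for SREBP2 without EST (0.27, adjusted p = 0.0588) and the interaction (-0.31, adjusted p = 0.16). Libraries of the same number deviated from their group means with correlations between -0.17 and 0.07. Libraries of different numbers were not compared in this way, so whether the numbers pair the libraries was not settled. Over all genes, the count for SREBP2 with EST went from 2448 to 1208 under the block, and that for EST in SREBP2 cells from 0 to 12 with DESeq2, 22 with no low-count filter, 8 with only the libraries compared, 18 without Vector+EST library 5 and 1567 without both libraries numbered 1. At this depth 3 counts limit what can be said of Cebpa, Irf8, Fcer1g and Mpo.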
